A study of Mus musculus with 32 samples.

Results

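The genes described here encode the respiratory chain and the ATP synthase of mouse muscle. They are the protein-coding genes whose symbols name a subunit of complex I, II, III, IV or V or cytochrome c, together with the protein-coding genes of the mitochondrial genome. This choice by symbol gave 100 genes of 22026 protein-coding genes listed. Of these, 87 lie in the nucleus and 13 in the mitochondrial genome. The nuclear genes were 35 for complex I, 4 for complex II, 9 for complex III, 20 for complex IV, 18 for complex V and 1 for cytochrome c (Cycs). Ndufa4 and Ndufa4l2 were placed with complex IV. Atp5o was listed under 2 identifiers, and the second had no counts. Between 95 and 96 of the 100 genes passed the filter on low counts, depending on the muscle. The 4 that passed in no state comparison were Cox7b2, Cox8c, mt-Nd4l and the second Atp5o entry.

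The libraries came from total RNA of gastrocnemius, quadriceps and tibialis muscles of male mice of at most 3 months. Wild-type mice were compared with mice homozygous for the knock-in allele M743T of GNE, the enzyme that starts the synthesis of sialic acid. The labels divide the knock-in mice into sick and healthy, so both knock-in states carried the same genotype. How sickness was defined is not given in the sources used here. Gastrocnemius was sampled with 4 libraries of wild type and 3 of each knock-in state. Quadriceps and tibialis had 4 of wild type, 4 of the healthy state and 3 of the sick state each. The labels give 4 mice per state, and do not say which libraries came from the same mouse. All p-values therefore measure the spread between these libraries.

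Complexes I and II pass electrons from NADH and succinate to ubiquinone, complex III passes them on to cytochrome c, and complex IV hands them to oxygen. The proton gradient that complexes I, III and IV build drives ATP synthesis by complex V. Subunits of complexes I, III, IV and V come from both genomes, whereas complex II and cytochrome c are wholly nuclear. Skeletal muscle relies on this chain for sustained contraction, and oxidative fibres hold more of it than glycolytic ones. Nuclear respiratory factor 1 (NRF1), ETS factors, oestrogen-related receptors (ERR) and YY1 are known regulators of the nuclear genes.

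The libraries held 7685164 to 42588233 counts. Muscle marker genes were present in every library. Some libraries stood apart in ways that touch these genes. Aside from Aqp1 and Ass1, which all libraries held, the summed level of 22 kidney tubule markers was 80.2 to 106 CPM (counts per 1000000 counts) in the 4 wild-type tibialis libraries and at most 3.91 CPM in the other 7 tibialis libraries. Healthy knock-in gastrocnemius replicate 2 reached 29.4 CPM. Healthy knock-in quadriceps replicate 4 had high levels of the brown fat genes Ucp1 (422 CPM) and Cidea (166 CPM), where no other library had more than 3.64 and 6.36 CPM. Of 95 respiratory chain genes with a mean of at least 1 CPM, sick replicate 2 was the lowest of the 3 sick libraries for 92 in gastrocnemius, 64 in quadriceps and 92 in tibialis. Wild-type tibialis replicate 3 was the highest of its group for 91 of the 95, wild-type gastrocnemius replicate 1 for 85 and wild-type quadriceps replicate 4 for 91.

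Transcripts of the mitochondrial genome made up a large part of each library. They took 7.04% to 15.5% of all counts in wild-type muscle, and the 87 nuclear genes took 1.79% to 4.79%. Per length, the highest means over the 12 wild-type libraries were those of mt-Cytb (cytochrome b of complex III), at 20838 ± 7003 CPM per kb (SD, n = 12), mt-Nd1 (complex I), mt-Atp8 (complex V) and mt-Co1 (complex IV), at 18624 ± 5719, 18436 ± 4474 and 16842 ± 5381 CPM per kb. These SDs also hold the differences between the muscles, and the order differed between muscles. In tibialis mt-Cytb, at 26458 to 33286 CPM per kb, lay above every library of mt-Atp8 (18955 to 24865) and mt-Co1 (19682 to 24848), while mt-Nd1 (21932 to 30488) overlapped it. In gastrocnemius the mean of mt-Cytb (18058 ± 1749, n = 4) was again the highest, and the ranges of the other 3 genes overlapped its own. In quadriceps they overlapped too, and the mean of mt-Atp8 (16290 ± 4104) was above that of mt-Cytb (14855 ± 2824). The highest nuclear genes were Cox6a2, the muscle form of a complex IV subunit, at 1030 ± 414 CPM per kb, Atp5a1 at 890 ± 257 and Cox8b at 845 ± 397. Atp5a1 encodes the alpha subunit of complex V. Cycs had 69.9 ± 19.9 CPM per kb.

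The counts of the mitochondrial genes split into 2 sets. Over the 32 libraries, mt-Co2 had 801 counts, mt-Co3 2891, mt-Nd3 5447, mt-Atp6 7352 and mt-Nd4l 67. The other 8 had between 2157433 (mt-Nd6) and 14288300 (mt-Co1). These 5 genes together held 0.0276% of the counts of the 13. Mt-Co2 and mt-Co3 encode subunits of complex IV, mt-Atp6 one of complex V, and mt-Nd3 and mt-Nd4l subunits of complex I. All windows of 50 bases were compared with the transcripts of other genes in GENCODE release M21 on both strands. Of the windows of mt-Co2, 100% occurred in another gene, and the share was 99.9% for mt-Co3, 99.5% for mt-Atp6, 98.8% for mt-Nd4l and 98.0% for mt-Nd3. It was 62.2% for mt-Nd4, 51.1% for mt-Co1 and at most 8.19% for the remaining 6. Mt-Atp8, at 0%, had 2189947 counts. The genes that share these windows include unprocessed pseudogenes, such as Gm10925 with mt-Atp6 and Gm28437 with mt-Co3, both on chromosome 1. How the authors treated reads with several matches is not given in the sources used here, and the part of shared windows in the low counts was not tested. Values of the 5 genes are therefore uncertain, and their levels cannot be set beside those of the other 8. Lengths were not corrected for shared windows. The order per length given above, such as that of mt-Co1 (51.1% shared) and mt-Cytb (0%), is therefore uncertain as well.

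**Figure D1:**
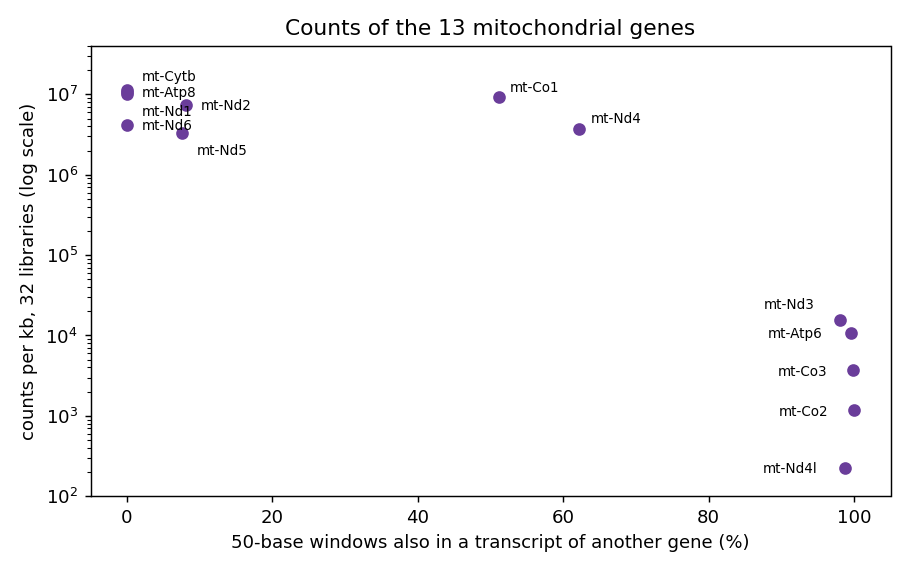
Counts per kb summed over the 32 libraries (vertical, log scale) against the percentage of 50-base windows found in a transcript of another gene (horizontal) for the 13 mitochondrial genes. The 5 genes with at least 98.0% shared windows lie far below the 8 others, which include mt-Nd4 at 62.2%.

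Sick knock-in muscle had lower estimates than wild type for most of the respiratory chain genes. In tibialis 36 of 96 genes tested were lower at an adjusted p under 0.05 (37.5%), where 9.61% of all genes tested were lower. In gastrocnemius 5 of 96 were lower (5.21%) against 6.52% of all genes, and in quadriceps 6 of 95 (6.32%) against 7.49%. The counts in gastrocnemius and quadriceps were thus near the background. None was called higher in any of the 3 muscles, where 8.22%, 10.5% and 8.44% of all genes were higher in gastrocnemius, quadriceps and tibialis. Estimates were below 0 for 93 of 96 genes in gastrocnemius, 78 of 95 in quadriceps and 95 of 96 in tibialis. The median log2 fold changes were -0.49, -0.22 and -0.66, and those of all genes tested were -0.03, 0.00 and -0.05. Of the 95 genes tested in every muscle, 78 had an estimate below 0 in each, and 2 passed the threshold in each, Cycs and Ndufc2. Libraries of the same number and state in different muscles deviated together (median correlation 0.43). The 3 muscles may therefore share mice, and their agreement cannot be counted as separate evidence.

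Most of these calls were lost without sick replicate 2. Without it, the number of genes called fell from 5 to 0 in gastrocnemius, from 6 to 0 in quadriceps and from 36 to 1 in tibialis, and the 1 left was Cycs (log2 fold change -0.95, limma-voom adjusted p = 0.0294). The share of all genes called lower fell as well, to 1.20%, 0.201% and 2.91%. Other libraries moved the numbers as well. In gastrocnemius 15 genes were called without sick replicate 1, 1 without sick replicate 3 or wild-type replicate 3, 2 without wild-type replicate 1 or 2, and 8 without wild-type replicate 4. In quadriceps it was 12 without sick replicate 4, 2 without sick replicate 3 or wild-type replicate 3, and 3 without wild-type replicate 1. For tibialis the numbers were 13, 16 and 18 on leaving out wild-type replicate 2, 1 and 3, and 19 on leaving out sick replicate 1. A fit of sick and wild-type tibialis alone, without the spread of the healthy libraries, called 7 in place of 36, and one over all 32 libraries called 22 in place of 5 in gastrocnemius. In tibialis the wild-type libraries also carried the kidney markers given above, with a summed level of 1.34 to 2.06 CPM in the sick libraries, and the part of this in the result was not tested. In bulk muscle, fewer cells of a type and less RNA per cell cannot be told apart.

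**Figure D2:**
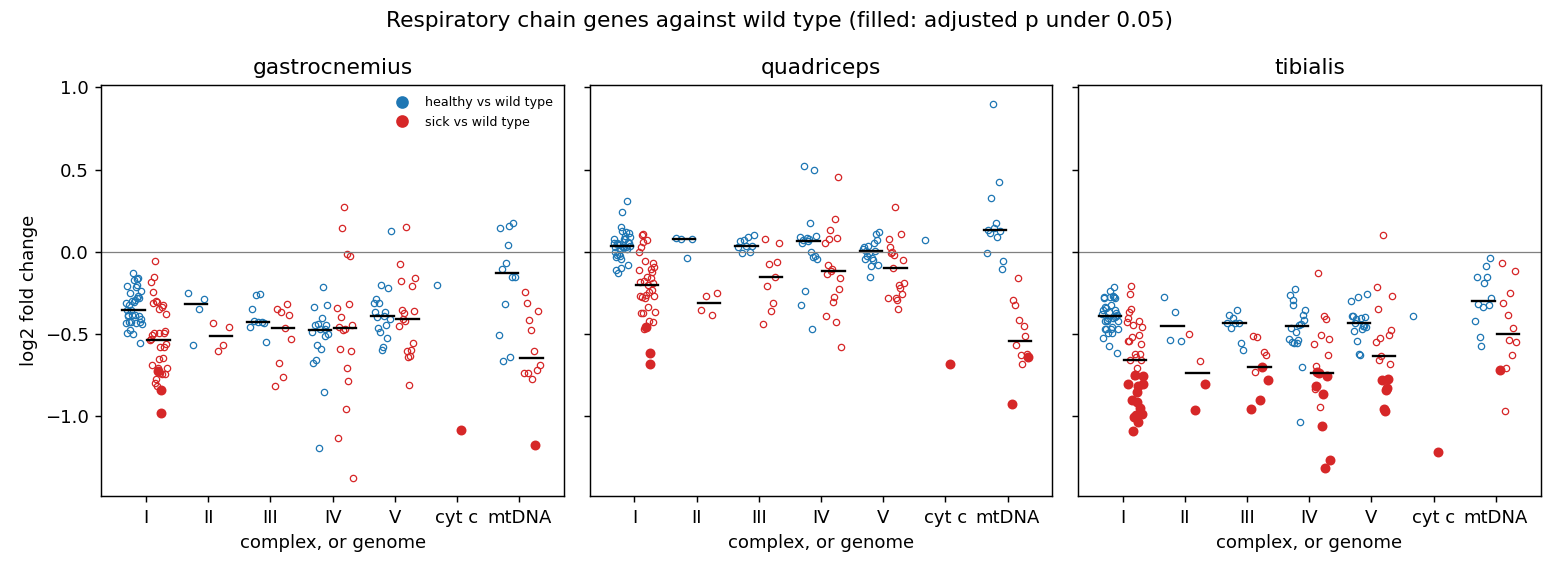
Log2 fold change against wild type for each respiratory chain gene (points; filled where the adjusted p was under 0.05), by complex for nuclear genes and for the mitochondrial genome (mtDNA), with healthy knock-in in blue and sick knock-in in red. Horizontal bars are medians; the filled points are all red and all below 0, with 36 of them in tibialis.

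Cycs encodes cytochrome c, the carrier between complexes III and IV. In gastrocnemius its level was 280, 194, 212 and 174 CPM in the wild-type libraries, 156, 192 and 209 CPM in healthy mutants and 117, 66.8 and 120 CPM in sick ones. In quadriceps it was 178, 190, 208 and 217 CPM in wild type and 107, 117 and 144 CPM in sick knock-in. In tibialis it was 255, 302, 412 and 234 CPM in wild type and 138, 88.3 and 165 CPM in sick knock-in. All sick libraries lay below all wild-type and healthy knock-in libraries of the same muscle. The log2 fold change against wild type was -1.08 ± 0.24 (SE) in gastrocnemius, -0.68 ± 0.13 in quadriceps and -1.22 ± 0.23 in tibialis (limma-voom adjusted p = 0.0169, 0.0109 and 0.00874).

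Ndufc2 encodes an accessory subunit of the membrane arm of complex I. It had 57.5 to 120 CPM in wild-type and 55.8, 28.1 and 35.7 CPM in sick gastrocnemius. In quadriceps the wild-type libraries had 57.1 to 70.9 CPM and the sick ones 35.1, 33.0 and 52.1 CPM. In tibialis they had 76.6 to 167 CPM and 63.9, 33.6 and 57.2 CPM. The groups did not overlap in any muscle. The log2 fold change was -0.98 ± 0.28, -0.62 ± 0.16 and -1.04 ± 0.27 (limma-voom adjusted p = 0.0397, 0.0262 and 0.0232). These calls depended on the fit. The limma-voom adjusted p was 0.161, 0.130 and 0.0926 without sick replicate 2. With only the 2 groups compared it was 0.0684, 0.0444 and 0.0601. With the replicate number as a block it was 0.0336, 0.0662 and 0.0609. Over all 32 libraries it was 0.0104, 0.0933 and 0.00587.

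**Figure D3:**
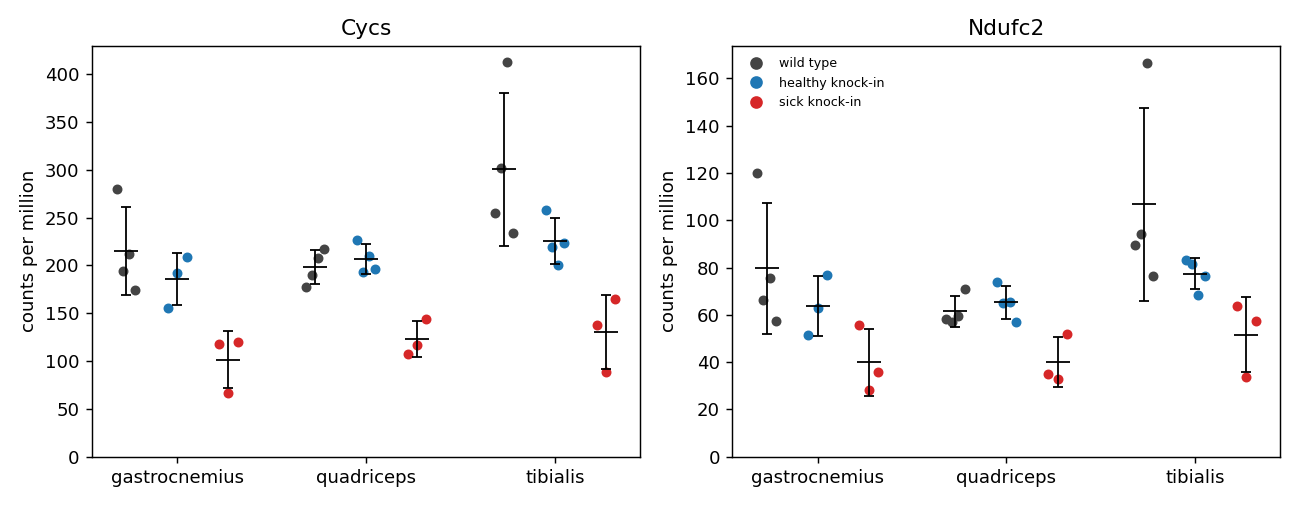
Level of Cycs (left) and Ndufc2 (right) in CPM for each library (points) by muscle and state, with the mean and SD of each group. The sick libraries of each muscle lie below the wild-type libraries, and wild-type tibialis replicate 3 is the highest point in both panels.

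Promoter windows of 300 bases, from 250 bases before to 50 bases after the transcription start, were taken from RefSeq (GRCm38.p6). They were found for 67 of 85 nuclear genes with counts, which had 72 windows. Windows were searched on both strands for 1 form of each motif. The NRF1 motif GCGCATGCG was in 9 of the 72 windows (12.5%) and in 1.75% of all 32851 windows. The ETS motif CCGGAAG was in 16 (22.2%) against 8.86% of all. The ERR motif TCAAGGTCA was in 2 (2.78%) against 0.423%, and the YY1 motif AAGATGGC was in 9 (12.5%) against 2.75%. The windows of Cycs and Ndufc2 are shown because these genes were lower in sick mice in every muscle, and that of Uqcrc1 because it is a complex III gene that holds the NRF1 letters. The Cycs window is chr6:50566520-50566819 on the minus strand, the Ndufc2 window chr7:97399753-97400052 on the plus strand and the Uqcrc1 window chr9:108936398-108936697 on the plus strand. Capitals mark the NRF1 motif, which reads on both strands in Uqcrc1 with 2 overlapping matches and on the reverse strand in Cycs. None of the 4 motifs searched was in the Ndufc2 window.
Cycs: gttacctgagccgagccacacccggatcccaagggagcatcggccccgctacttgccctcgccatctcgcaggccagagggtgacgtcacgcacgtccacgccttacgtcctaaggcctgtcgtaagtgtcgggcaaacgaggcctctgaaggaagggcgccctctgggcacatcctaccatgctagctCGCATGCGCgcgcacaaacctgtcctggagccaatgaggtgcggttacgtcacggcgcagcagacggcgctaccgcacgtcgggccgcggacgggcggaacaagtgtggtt
Uqcrc1: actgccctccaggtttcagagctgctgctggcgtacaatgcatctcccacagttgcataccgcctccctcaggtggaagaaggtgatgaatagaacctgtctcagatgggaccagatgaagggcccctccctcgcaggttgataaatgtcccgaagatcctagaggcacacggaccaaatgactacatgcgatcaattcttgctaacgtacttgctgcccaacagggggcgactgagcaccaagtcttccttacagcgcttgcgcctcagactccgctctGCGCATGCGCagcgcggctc
Ndufc2: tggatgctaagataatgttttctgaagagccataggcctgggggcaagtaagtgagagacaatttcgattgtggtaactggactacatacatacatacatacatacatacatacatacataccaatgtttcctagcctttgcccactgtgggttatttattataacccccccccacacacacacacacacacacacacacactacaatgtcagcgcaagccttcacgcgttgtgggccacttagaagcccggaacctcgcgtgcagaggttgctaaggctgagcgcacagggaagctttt

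Complex I oxidises NADH and is the largest complex of the chain. Of its 35 nuclear genes, all tested, 3 were lower in sick gastrocnemius, 3 in quadriceps and 14 in tibialis, with medians of -0.54, -0.20 and -0.66. Besides Ndufc2 they were Ndufb4 (-0.73 ± 0.21) and Ndufc1 (-0.84 ± 0.25) in gastrocnemius, and Ndufs1 and Ndufb3 in quadriceps. Of all genes tested, 6.52%, 7.49% and 9.61% were lower in gastrocnemius, quadriceps and tibialis. The complex I counts in gastrocnemius and quadriceps were thus near the background. The same shares of all genes apply to the counts of complexes II to V below. Ndufs1 encodes the largest subunit, which holds iron-sulfur clusters of the electron path. Its level in quadriceps was 329, 302, 348 and 414 CPM in wild type, 370, 320, 406 and 371 CPM in healthy mutants and 189, 211 and 246 CPM in sick ones. The sick libraries did not overlap the others, and the log2 fold change against wild type was -0.68 ± 0.14 (limma-voom adjusted p = 0.0133). In tibialis Ndufs1 fell by 0.81 ± 0.21 on the log2 scale. Ndufb10, an accessory subunit, had the lowest adjusted p of complex I in tibialis. It had 320, 337, 608 and 302 CPM in wild type and 196, 131 and 212 CPM in sick knock-in, a log2 fold change of -1.09 ± 0.25 (limma-voom adjusted p = 0.0160).

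Complex II is both an enzyme of the citric acid cycle and an entry point for electrons. None of its 4 genes was called in gastrocnemius or quadriceps, where the medians were -0.51 and -0.31. Sdhc, a membrane anchor, had the lowest adjusted p there, with log2 fold changes of -0.57 ± 0.23 and -0.38 ± 0.14 (limma-voom adjusted p = 0.108 and 0.0778). In tibialis Sdhb and Sdhd were lower. Sdhb, the iron-sulfur subunit, had 664, 663, 1152 and 534 CPM in wild type and 409, 289 and 432 CPM in sick knock-in. The 2 groups did not overlap, and the log2 fold change was -0.96 ± 0.24 (limma-voom adjusted p = 0.0211).

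Complex III had no gene called in gastrocnemius or quadriceps and 4 of 9 lower in tibialis, namely Cyc1, Uqcrc1, Uqcrc2 and Uqcrq. Uqcrc1 encodes a core protein of the complex. Its tibialis level was 1263, 1351, 1811 and 979 CPM in wild type and 784, 537 and 833 CPM in sick knock-in. The groups did not overlap, and the log2 fold change was -0.90 ± 0.21 (limma-voom adjusted p = 0.0181). Cyc1 encodes cytochrome c1, which passes electrons to cytochrome c. Its log2 fold change was -0.82 ± 0.31 in gastrocnemius, -0.44 ± 0.15 in quadriceps and -0.95 ± 0.23 in tibialis (limma-voom adjusted p = 0.0970, 0.0573 and 0.0209).

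Complex IV, cytochrome c oxidase, has several subunits with a muscle form and a general form. None of its nuclear genes was called in gastrocnemius or quadriceps, and 8 of 18 tested were lower in tibialis. The 8 held both forms of subunit 7a. Cox7a1, the muscle form, had 401, 448, 780 and 272 CPM in wild-type and 220, 172 and 256 CPM in sick tibialis, and Cox7a2 had 176, 175, 299 and 137 CPM and 114, 79.9 and 122 CPM. Neither overlapped between the groups, and their log2 fold changes were -1.06 ± 0.29 and -0.87 ± 0.24 (limma-voom adjusted p = 0.0274 and 0.0288). Cox5b, which had the lowest adjusted p of the complex, changed by -0.82 ± 0.21.

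Cox6a2, the muscle form of subunit 6a, differed from this pattern in its values. It had 755, 689, 1443 and 640 CPM in wild-type and 883, 667 and 754 CPM in sick tibialis, so the groups overlapped. Its log2 fold change was 0.15 ± 0.33 in gastrocnemius, 0.13 ± 0.21 in quadriceps and -0.13 ± 0.25 in tibialis (limma-voom adjusted p = 0.790, 0.692 and 0.736). The general form Cox6a1 was lower in tibialis (-0.73 ± 0.23). Per length, Cox6a2 stood above Cox6a1 by a ratio of 28.5 ± 3.86 in wild-type tibialis (SD, n = 4) and 43.1 ± 3.01 in sick tibialis (n = 3). The ratios did not overlap in tibialis and did overlap in the other 2 muscles.

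The other pairs of subunit forms were mixed. Cox8b, the muscle form of subunit 8, was not called in any muscle, with log2 fold changes of -0.60 ± 0.30, -0.22 ± 0.21 and -0.63 ± 0.28. Cox8a, the general form, was lower in tibialis (-0.75 ± 0.20) and had 0.45 ± 0.41 in quadriceps. Its 3 sick quadriceps libraries, at 29.4, 34.4 and 26.2 CPM, lay above all 4 wild-type ones, at 19.8 to 24.5 CPM. The SE in quadriceps also held the spread of the healthy libraries, of which replicate 4 had 91.7 CPM of Cox8a. Cox6b1 was lower in tibialis (-0.74 ± 0.24), and its testis form Cox6b2 stayed below 1 CPM in every library. Cox4i1 (subunit 4) was not called in any muscle, and its other form Cox4i2 had at most 4.77 CPM. Ndufa4l2, a paralog of Ndufa4 known to respond to hypoxia, had 14.0, 13.8, 21.6 and 12.6 CPM in wild-type and 6.55, 3.89 and 10.3 CPM in sick tibialis. The groups did not overlap, and its log2 fold change was -1.26 ± 0.34 there and -1.37 ± 0.44 in gastrocnemius (limma-voom adjusted p = 0.0283 and 0.0585). Ndufa4 itself was not called in any muscle.

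Complex V, the ATP synthase, had 0 of 17 genes called in gastrocnemius and quadriceps and 6 lower in tibialis. Atp5h, a subunit of the peripheral stalk, had 352, 320, 569 and 233 CPM in wild-type and 194, 146 and 203 CPM in sick tibialis. The groups did not overlap, and the log2 fold change was -0.97 ± 0.25 (limma-voom adjusted p = 0.0245). Atp5j, also of the stalk, changed by -0.84 ± 0.22 in tibialis and had -0.81 ± 0.27 in gastrocnemius (limma-voom adjusted p = 0.0261 and 0.0636).

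Subunit c, which forms the rotating ring of the ATP synthase, is made from Atp5g1, Atp5g2 and Atp5g3, whose mature proteins are the same. Atp5g1 and Atp5g3 were lower in sick tibialis (-0.78 ± 0.24 and -0.96 ± 0.26). Atp5g2 had estimates above 0 in all 3 muscles, of 0.15 ± 0.18, 0.27 ± 0.13 and 0.10 ± 0.18, and passed the threshold in none against wild type. The ratio of Atp5g3 to Atp5g2 per length was 5.40 to 9.38 in wild-type and 3.65 to 4.66 in sick gastrocnemius. It was 6.72 to 7.54 and 4.64 to 4.95 in quadriceps, and 7.78 to 12.4 and 4.56 to 5.54 in tibialis. No sick library reached the range of wild type in any muscle. In healthy knock-in the ratio was 4.42 to 6.55, 6.15 to 8.35 and 7.22 to 9.80, which overlapped wild type in every muscle. This ratio was singled out after its values were seen and was not tested.

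**Figure D4:**
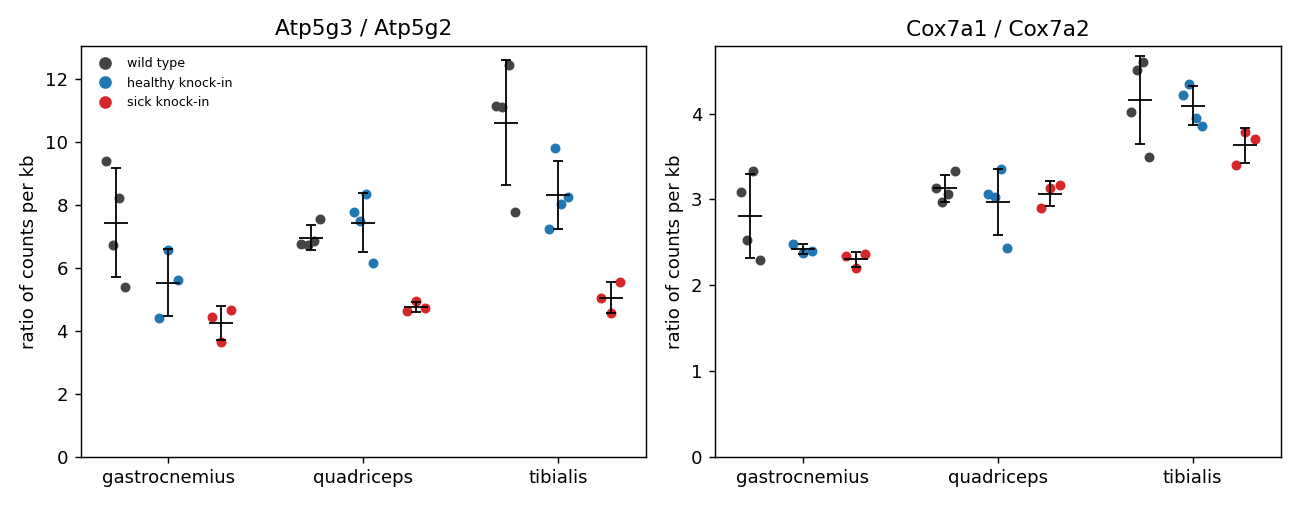
Ratio of Atp5g3 to Atp5g2 (left) and of Cox7a1 to Cox7a2 (right), as counts per kb, in each library by muscle and state, with the mean and SD of each group. On the left the sick libraries, at 3.65 to 5.54, lie below the wild-type libraries of the same muscle; on the right tibialis is the highest muscle, with 4.16 ± 0.51 in wild type (n = 4).

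Of the mitochondrial genes, 12 were tested. In sick gastrocnemius mt-Nd3 was lower, in quadriceps mt-Atp6 and mt-Nd6, and in tibialis mt-Atp6, with medians of -0.65, -0.54 and -0.50 over the 12. Of all genes tested, 6.52%, 7.49% and 9.61% were lower. With 1 of 12 called, gastrocnemius and tibialis were each near that share. All 12 estimates were below 0 in each muscle. Mt-Nd3 and mt-Atp6 belong to the 5 genes with few counts. Mt-Atp6 had 7.48, 7.25, 10.2 and 10.6 CPM in wild-type and 3.95, 3.99 and 5.73 CPM in sick quadriceps, with no overlap and a log2 fold change of -0.93 ± 0.25 (limma-voom adjusted p = 0.0289). Mt-Nd6, the 1 complex I subunit encoded on the light strand, had 2662, 3127, 2765 and 3439 CPM in wild type and 1800, 1651 and 2310 CPM in sick quadriceps. These groups did not overlap either, with a log2 fold change of -0.64 ± 0.16 (limma-voom adjusted p = 0.0232). The strand setting of the authors' counting is not given in the sources used here, so reads of mt-Nd6 and of the opposite strand cannot be told apart.

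As a share of all counts, the mitochondrial genes took 7.21%, 7.04%, 7.38% and 10.8% in wild-type and 6.55%, 4.79% and 6.69% in sick quadriceps. In tibialis they took 13.4% to 15.5% in wild type, 11.0% to 14.6% in healthy mutants and 12.3%, 8.28% and 12.3% in sick ones. The ranges of sick and wild type did not overlap in these 2 muscles. In gastrocnemius they did, at 8.23% to 12.6% and 11.1%, 5.22% and 5.81%. The nuclear genes took 2.83% to 4.79% in wild-type and 2.03% to 2.48% in sick tibialis, without overlap, and overlapped in the other 2 muscles.

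**Figure D5:**
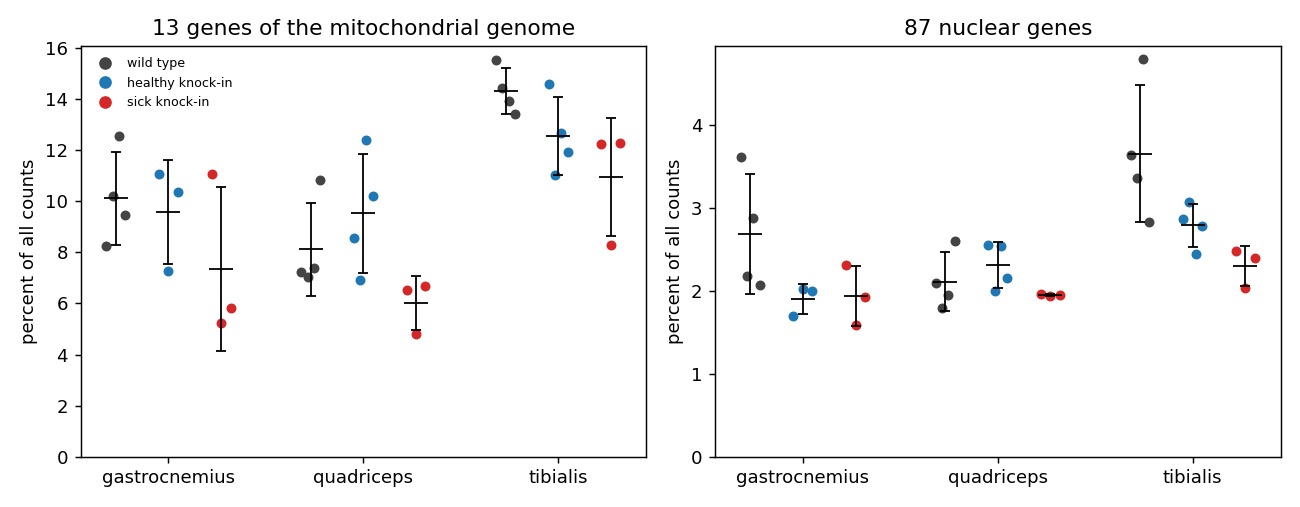
Share of all counts taken by the 13 mitochondrial genes (left) and the 87 nuclear genes (right) in each library, by muscle and state, with the mean and SD of each group. Wild-type tibialis is the highest group in both panels, and wild-type tibialis replicate 3 stands at 4.79% on the right.

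Healthy knock-in mice carry the same alleles as sick ones. None of the respiratory chain genes was called in healthy knock-in against wild type in any muscle by limma-voom or by limma-trend, where limma-voom called 0.00706% of all genes in gastrocnemius, 0.0362% in quadriceps and 0.496% in tibialis. At an unadjusted p under 0.05 there were 2 of 96 (2.08%), 2 of 95 (2.11%) and 26 of 96 genes (27.1%), against 7.65%, 4.62% and 4.93% of all genes. The respiratory chain was thus below the share of all genes in gastrocnemius and quadriceps and above it in tibialis. The medians were -0.39, 0.04 and -0.40. In tibialis all 96 estimates were below 0, among them Cycs at -0.39 and Uqcrc1 at -0.43, and here too the kidney markers lay only in the wild-type libraries. That set of markers was at most 3.91 CPM in both knock-in states of tibialis.

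Sick and healthy knock-in mice differ in state but not in genotype. In gastrocnemius Cycs was the 1 gene lower (-0.88 ± 0.25, limma-voom adjusted p = 0.0392), where 6.90% of all genes were lower and 7.17% higher. In tibialis it was again Cycs alone (-0.83 ± 0.23, limma-voom adjusted p = 0.0415), against 6.30% lower and 5.03% higher. Leaving out 1 library ended the Cycs call for 5 of 6 libraries in gastrocnemius and 6 of 7 in tibialis. The medians over the respiratory chain genes were -0.15 and -0.25. In quadriceps 10 of 95 genes were lower and 1 higher, against 7.51% and 10.1% of all genes. The 10 were Cycs, Ndufs1, Ndufc2, Ndufb3, Ndufs4, Cyc1, Cox7a2, mt-Nd6, mt-Atp6 and mt-Co3. Cycs (-0.75 ± 0.12) and Ndufs1 (-0.76 ± 0.14) had the lowest adjusted p (limma-voom, 0.00688 and 0.00893). The 1 higher gene was Atp5g2, with 64.2, 48.6, 52.1 and 45.2 CPM in healthy and 65.9, 72.0 and 71.4 CPM in sick quadriceps, without overlap (0.43 ± 0.13, limma-voom adjusted p = 0.0445).

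Healthy quadriceps replicate 4, the library with Ucp1 and Cidea, also stood apart for 2 complex IV genes. Cox6a1 had 16.3, 18.2 and 18.3 CPM in the other healthy libraries and 114 CPM in this one, and Cox8a had 20.9 to 23.5 CPM and 91.7 CPM. Both are the general forms of their subunits. Without this library the number of genes called between sick and healthy quadriceps was 15 in place of 11. It was also 15 without healthy replicate 2, 20 without sick replicate 4, 6 without healthy replicate 1, 3 without healthy replicate 3 and 2 without sick replicate 2 or 3.

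Among wild-type mice, respiratory chain genes were higher in tibialis than in quadriceps. In this comparison 30 of 96 genes were higher and none lower (31.25%), where 3.58% of all genes were higher. Same-numbered libraries of the 2 muscles deviated together (correlations of 0.21 to 0.45 over 4 pairs), and with the replicate number as a block 43 genes were called, where 6.69% of all genes were higher. All 96 estimates were above 0, with a median of 0.82, and that of all genes was 0.00. The 30 held 9 of 12 mitochondrial genes, 6 of complex V, 5 of complex I, 4 each of complexes III and IV and 2 of complex II. Mt-Cytb had 32593, 34519, 38080 and 30268 CPM in tibialis and 15339, 14746, 16124 and 21766 CPM in quadriceps. The muscles did not overlap, and the log2 fold change was 1.02 ± 0.17 (limma-voom adjusted p = 0.00457). The largest nuclear fold among the calls was that of Cox7a1, which had 188, 162, 161 and 216 CPM in quadriceps against the tibialis levels above (1.32 ± 0.34, limma-voom adjusted p = 0.0403). Mt-Co3, mt-Co2 and mt-Atp6, of the genes with few counts, had 1.85 ± 0.31, 1.40 ± 0.27 and 1.32 ± 0.26.

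Against gastrocnemius 2 genes were higher in tibialis, where 1.26% of all genes were. They were Sdhd (0.84 ± 0.19, limma-voom adjusted p = 0.0366) and mt-Cytb (0.72 ± 0.17, limma-voom adjusted p = 0.0411), and the median was 0.54. This count (2.08%) is near that of all genes, and with the replicate block it was 1, where 2.11% of all genes were higher. Estimates were above 0 for 95 of the 96 genes, with Cox6b2 at -0.22. Sdhd anchors complex II in the membrane and had 410, 397, 610 and 335 CPM in tibialis and 305, 216, 257 and 199 CPM in gastrocnemius, without overlap. None was called between quadriceps and gastrocnemius by limma-voom or limma-trend, where 1.07% of all genes were. At an unadjusted p under 0.05 there were 7 of 96 (7.29%), below the 10.9% of all genes. The count against quadriceps ranged from 5 to 46 and that against gastrocnemius from 0 to 8 over leaving out each library. Against quadriceps it was 46 without replicate 4 of either muscle, and 5 to 10 without any of the other 6 libraries. Against gastrocnemius it was 8 without gastrocnemius replicate 1, 2 without its replicate 3, 3 without tibialis replicate 4 and 0 without any other. The kidney markers lay in all wild-type tibialis libraries, so muscle and kidney transcripts cannot be told apart as sources of this difference.

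The change in sick mice was then compared between muscles. No respiratory chain gene differed in its sick change between quadriceps and gastrocnemius (0% of all genes called), tibialis and gastrocnemius (0.204%) or tibialis and quadriceps (0.243%), by limma-voom or limma-trend. The counts at an unadjusted p under 0.05 were 0, 0 and 5 of 96 genes (5.21%), against 1.14%, 2.76% and 7.91% of all genes. The larger count of calls in tibialis is thus not shown to be a larger change. For Cycs the difference between tibialis and quadriceps was -0.52.

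Other genes that serve the chain were counted from lists, always in the order gastrocnemius, quadriceps and tibialis and against wild type. Among all genes tested, 6.52%, 7.49% and 9.61% were lower and 8.22%, 10.5% and 8.44% higher. Of 47 assembly factors tested, which build the complexes but are not part of them, 17 were lower in sick gastrocnemius (36.2%), 10 in quadriceps (21.3%) and 16 in tibialis (34.0%), and none higher. Without sick replicate 2 these counts were 3, 0 and 7. The medians were -0.53, -0.33 and -0.56. Bcs1l, which inserts the iron-sulfur protein into complex III, changed by -0.98, -1.07 and -1.25. Taco1, a translational activator of mt-Co1, changed by -1.19, -1.15 and -1.20, and Tmem126b, an assembly factor of complex I, by -1.26, -1.08 and -1.06. A list of 6 subunits and associated proteins held Atp5mpl, which is also among the 100 genes above. Of the 6, 1, 2 and 2 were lower, and without sick replicate 2 these counts were 0, 0 and 1. Ndufab1, the acyl carrier subunit of complex I, was lower in each muscle (-1.03, -0.67 and -1.29).

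Of 13 genes of ubiquinone synthesis, 1, 2 and 5 were lower (7.69%, 15.4% and 38.5%) and none higher, and without sick replicate 2 the counts were 0, 0 and 2. Coq7, a hydroxylase of that pathway, was lower in each muscle (-1.56 ± 0.44, -1.19 ± 0.21 and -1.68 ± 0.32). Of 17 genes of the citric acid cycle and pyruvate dehydrogenase, 1, 3 and 6 were lower (5.88%, 17.6% and 35.3%) and none higher. Without sick replicate 2 they were 0, 0 and 2. The share in gastrocnemius was near that of all genes. Dlat, a subunit of pyruvate dehydrogenase, was lower in each muscle (-0.95, -0.71 and -1.17) and was the 1 gene called in gastrocnemius. Pdhb, of the same enzyme, was among those lower in tibialis (-0.87). A list of 9 genes held carriers of ADP, phosphate and related metabolites and Ckmt2, the mitochondrial creatine kinase. Ckmt2 was lower in tibialis (-1.71 ± 0.26), and none of the carriers was called in any muscle.

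The 29 genes for expression of the mitochondrial genome, of which 28 were tested in quadriceps, were called lower in 3, 1 and 4 cases (10.3%, 3.57% and 13.8%) and higher in 0, 0 and 2. Without sick replicate 2, 0, 0 and 2 were lower and none higher. Tfam, which packages mitochondrial DNA and starts its transcription, had 42.3 to 50.9 CPM in wild-type and 34.6, 30.3 and 34.3 CPM in sick gastrocnemius. The groups did not overlap, and the log2 fold change was -0.49 ± 0.15 (limma-voom adjusted p = 0.0462). Of 20 regulators of mitochondrial biogenesis, 5, 4 and 6 were higher (25%, 20% and 30%) and 3, 1 and 3 lower (15%, 5% and 15%). Without sick replicate 2, 1, 0 and 6 were higher and 0, 0 and 1 lower. Those higher in each muscle were Nrf1 (0.87, 0.90 and 0.91), Sirt1 (1.01, 0.89 and 1.06) and Yy1 (0.90, 0.73 and 0.92). Sirt3, a mitochondrial deacetylase, was lower in each (-0.95, -0.64 and -1.16). Ppargc1a, a coactivator of these regulators, had 32.2, 35.1, 55.0 and 69.6 CPM in wild-type and 83.1, 102 and 198 CPM in sick gastrocnemius, without overlap (1.40 ± 0.33, limma-voom adjusted p = 0.0210). It had 1.24 ± 0.54 in quadriceps and 0.02 ± 0.17 in tibialis (limma-voom adjusted p = 0.125 and 0.933).

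Fibre type and other cell markers varied beside these values. Slow fibre genes, 10 in all, summed to 429 to 3477 CPM in wild-type and 433 to 7010 CPM in sick gastrocnemius, and to 147 to 743 CPM and 85.9 to 460 CPM in tibialis. None of the 10 was called in gastrocnemius, 2 were higher in quadriceps and 1 was lower in tibialis. Of 12 fast fibre genes, 1, 1 and 2 were lower and 0, 0 and 1 higher. This list pools myosin genes whose tibialis values went different ways. Myh2 had 1061 to 2332 CPM in wild type and 1216, 426 and 398 CPM in sick tibialis. Myh1 had 11709 to 15102 CPM and 10777, 8768 and 7669 CPM, without overlap. Myh4 had 18894 to 41498 CPM and 69339, 37800 and 63341 CPM. In gastrocnemius and quadriceps the ranges of these myosin genes overlapped. Of 10 muscle identity genes, 1 was lower and 1 higher, both in tibialis. Among all genes tested, 6.52%, 7.49% and 9.61% were lower and 8.22%, 10.5% and 8.44% higher. Fibro-adipogenic genes were lower in 4, 3 and 4 of 8 cases, and without sick replicate 2 in 4, 0 and 5. Macrophage genes were higher in 3 of 10 in quadriceps and lower in 1 and 2 of 10 in gastrocnemius and tibialis. Without sick replicate 2 these counts were 0, 0 and 2. Erythrocyte genes were higher in 4 of 6 tested in gastrocnemius and 1 of 5 in quadriceps, and without sick replicate 2 in 1 and 0. Endothelial genes were lower in 1 of 8 in quadriceps and in tibialis, adipocyte genes in 1 of 7 in quadriceps, and none of 4 heart genes was called. Of 19 kidney tubule genes tested in tibialis, 17 were lower, and Umod was at 0 in all 7 knock-in tibialis libraries. The part of these cell types in the respiratory chain values was not tested.

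In the authors' deposited table, 18 respiratory chain genes were lower in sick gastrocnemius, 3 in quadriceps and 48 in tibialis at an adjusted p under 0.05, and none higher. All 5 genes called here in gastrocnemius, 3 of the 6 in quadriceps and 33 of the 36 in tibialis were among them. In the authors' deposited table Cycs had log2 fold changes of -1.07, -0.69 and -1.22 with adjusted p of 6.53e-05, 0.0226 and 2.56e-06.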

How the data were processed

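RNA of 32 muscle libraries was sequenced. The submitters' processing notes name DESeq2 1.22.1, HTSeq 0.6.0, TopHat2 2.1.1 and cutadapt 1.18, with GRCm38 as build. The deposited table by the authors holds whole-number counts per gene, scaled counts, log2 fold changes and adjusted p-values. Per the deposited table, 6252 of 54838 genes have a question mark in place of counts and were left out. These marks kept the columns from being classed as counts. For this reason limma-voom stood in for a count model, on the whole-number counts of the remaining genes. The members and lists were chosen with earlier results of these data known.

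Counts were scaled by trimmed mean of M values and tested with limma 3.58.1 (voom, robust empirical Bayes) in R 4.3.3. State comparisons were fitted within each muscle over all 3 states, and muscle comparisons over all wild-type libraries. Differences of the sick change between muscles were fitted over all 32 libraries, healthy knock-in included. Genes were kept with 15 counts in all and a CPM worth 10 counts in a library of median size, reached by a number of libraries no lower than that of the smallest group. P-values were adjusted by Benjamini-Hochberg over all genes tested, with a threshold of 0.05. CPM values used scaling over all 32 libraries and, per length, the exon length in GENCODE release M21, where 54809 genes matched. The script was checked on simulated data. Replicate pairs differed beyond sampling noise (chi-square per gene 13.3 to 220 over 42 pairs).

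Genes were named by rule: the lowest adjusted p of each complex and genome in sick mice of each muscle, every mitochondrial gene called between states, pairs of subunit forms, and the 4 largest folds in each wild-type comparison. Others were named after their values were seen. Alternatives were median-of-ratios scaling, scaling without mitochondrial genes, no filter, limma-trend with a pseudocount of 2, only the 2 groups compared, all 32 libraries, a replicate block and leaving out each library.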

Additional observations from a re-analysis of the deposited data

Results flagged for a closer look

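In groups of 4 libraries, 1 library far from the other 3 was found for 16 of 175 sets of values tested over the named genes and the 2 shares. For independent sets of normally spread values, chance alone gives about 1 in 20. These sets come from the same libraries and are not independent, so 16 of 175 cannot be set against that rate. Wild-type gastrocnemius replicate 1 was far above the rest of its group for Atp5g2 (85.8 CPM) and Cox8b (494 CPM). Wild-type quadriceps replicate 4 was far above for Ndufc2 (70.9 CPM), Ndufa4 (429 CPM) and the mitochondrial share of counts (10.8%). Wild-type tibialis replicate 3 was far above for Ndufb10 (608 CPM), Cox6a2 (1443 CPM), Atp5g2 (105 CPM), Ndufa4l2 (21.6 CPM) and mt-Co2 (3.18 CPM).

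Healthy knock-in quadriceps replicate 4 was far above the rest for Cox6a1 (114 CPM) and Cox8a (91.7 CPM), and its summed level of 8 adipocyte markers was 4034 CPM. Healthy knock-in tibialis replicate 1 was far above for mt-Nd3 (19.1 CPM), mt-Atp6 (20.4 CPM) and mt-Co2 (2.95 CPM), and replicate 4 far below for Ndufa4l2 (7.17 CPM).

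Cox8a was set apart because all its sick libraries lay above wild type in quadriceps and below it in tibialis. The difference of the sick change between tibialis and quadriceps was -1.19 on the log2 scale and did not pass the test (limma-voom adjusted p = 0.584). The spread in that fit also held healthy quadriceps replicate 4, with Cox8a at 91.7 CPM against 20.9 to 23.5 CPM in the rest of its group.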

How the results depend on the processing

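The numbers of respiratory chain genes called in sick against wild type depended on the libraries and on how their spread was pooled. Against 5, 6 and 36 in gastrocnemius, quadriceps and tibialis, a fit of only the 2 groups gave 2, 5 and 7, and a fit over all 32 libraries 22, 2 and 45. Between sick and healthy mice, against 1, 11 and 1, these fits gave 0, 2 and 0, and 1, 2 and 2. Limma-trend gave 2 for sick against healthy gastrocnemius. Wild-type tibialis against gastrocnemius gave 10 without a filter on low counts in place of 2, and against quadriceps 55 over all 32 libraries in place of 30. Leaving out each library gave 0 to 15, 0 to 12 and 1 to 42 for sick against wild type, 0 to 6, 2 to 20 and 0 to 2 for sick against healthy, and 0 to 1, 0 to 8 and 5 to 46 for quadriceps against gastrocnemius, tibialis against gastrocnemius and tibialis against quadriceps. For these results the cause was not tested. Healthy against wild type and the differences of the sick change between muscles gave 0 under every alternative run. In the comparisons of sick mice, no estimate of a named gene past the threshold changed sign under any alternative run.

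With the replicate number as a block, the counts were 9, 3 and 3 for sick against wild type, 1, 5 and 0 for sick against healthy, and 1 and 43 for wild-type tibialis against gastrocnemius and quadriceps. Libraries of the same number and state in different muscles correlated with a median of 0.43, and 26 of 28 pairs were above 0.1. Those of the same state but different number and muscle had a median of -0.14, and 6 of 87 were above 0.1. Those of the same number and muscle in different states had a median of 0.00, and 6 of 29 were above 0.1. The labels do not say what a number marks.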
